A study of Mus musculus with 6 samples.

Results

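Liver transcripts of mice induced to make the large T antigen of SV40, a polyomavirus, were compared with those of wild-type mice across all genes. The comparison used the LT and WT arrays of the Affymetrix 430A and 430B designs, 4 of the 6 arrays in the series, with 1 array for each genotype on each design. All mice were males of a Hybrid B6SJL background, 32 to 37 days old, and all, WT included, drank 25 µg/ml doxycycline with 2.5% sucrose for 4 days. LT mice carried the ApoErtTA and TRE2-TAg transgenes and, per the labels, made the SV40 LT and st oncoproteins under doxycycline, while WT mice carried no transgene. The effects of LT, of st (small t), of the transactivator transgene and of the fluidics station named below cannot be told apart in this comparison. The series is titled as one of conditional, liver-specific expression. The sources used here do not say whether an RNA sample came from a single animal or from several. No probe set for the viral transcripts was used, and the genotype labels therefore have no check on the arrays.

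Large T binds the retinoblastoma family of pocket proteins, which hold back E2F transcription factors, and it also binds p53, which halts the cycle of damaged cells. E2F factors switch on genes for DNA replication, and a later wave of mitotic genes is held back in resting cells by the DREAM complex, which contains pocket proteins and E2F factors. Small t binds the phosphatase PP2A. Adult hepatocytes seldom divide, and most of their messenger RNA encodes enzymes of metabolism and proteins secreted into the blood.

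A signal here is the intensity of a gene's probe set after arrays of a design were scaled to the same trimmed mean. Signals below a floor, the median over the design's arrays (90.4 for 430A and 140.5 for 430B), were set to the floor. Of 18193 genes, 12775 were above the floor in LT or WT and are called measured, and a difference of 2-fold or more between the floored signals counted as higher or lower. In LT liver, 1415 genes (11.1% of measured genes) were higher and 1152 (9.02%) were lower, so 55.1% of the calls were higher. That share was 26.9% (805 higher, 2183 lower) with scaling to the shared probe sets of the designs and 81.2% (2741 higher, 633 lower) with scaling to the hybridisation controls. The median log2 ratio of all measured genes was 0.02, and -0.27 and 0.40 under those scalings. With 1 array per genotype and design there was no replicate check of any difference, no test was made, and the 2-fold rule is a rule of size alone. The technical spread of a log2 ratio was 0.23 (SD of the 100 probe sets that both designs carry) and 0.54 between probe sets of the same gene (SD over 3520 genes). The 0.23 leaves out a shift between the designs: for those 100 probe sets the median difference of log2 ratios, 430A minus 430B, was -0.25. The 0.54 covers only genes with 2 probe sets above the floor in both genotypes, so it does not describe genes near the floor. The 3' over 5' ratio of Gapdh, a measure of RNA length, was 5.81 and 6.04 on the WT arrays (430A and 430B) and 3.08 and 3.16 on the LT arrays, while that of Actb was 2.57 and 2.29 in WT and 2.52 and 2.5 in LT. LT arrays were washed on station 2 and WT arrays on station 1. The part of RNA length in any difference below was not tested. Signals of different genes are not comparable with each other, because probe sets differ in brightness. Values for close paralogs (the Cyp2c, Cyp2d, Cyp4a, Mup, Saa, Sult2a, Ces1, Ugt, Gst and Serpina families) are uncertain, since probes can bind several members.

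The liver label was checked against 14 measured hepatocyte markers, all of which were above the floor on both genotypes. The albumin gene Alb had a signal of 28286 in WT and 23850.2 in LT, the thyroid hormone carrier Ttr 83345 in WT and 57396 in LT, and Ahsg, a fetuin, 21832 in WT and 16615 in LT. None of these 3 passed the 2-fold rule, and all 14 log2 ratios were below 0, down to -2.78 for the asialoglycoprotein receptor gene Asgr1. In these bulk samples, fewer hepatocytes and less RNA of a gene in each hepatocyte cannot be told apart.

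**Figure D1:**
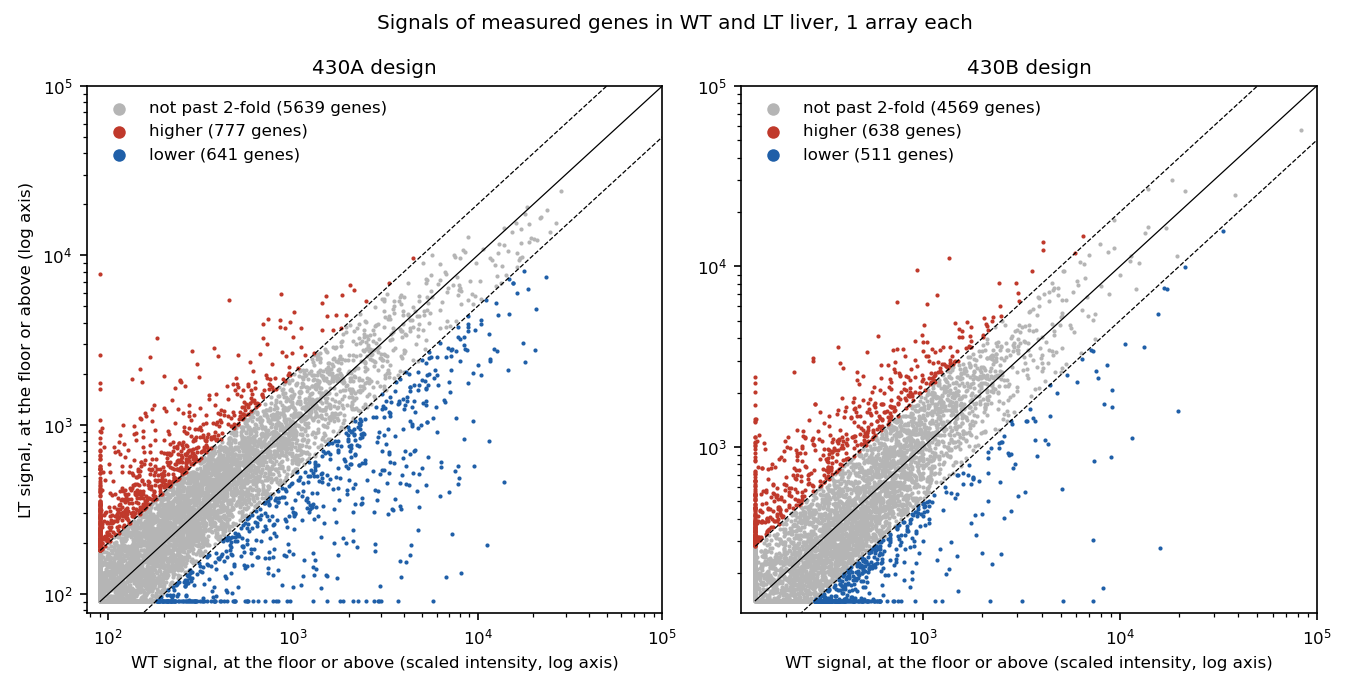
Scaled signal of every measured gene in WT (x axis) and LT (y axis), both on log axes, for the 430A design and the 430B design, with 1 array per genotype. The solid line marks equal signals and the dashed lines 2-fold, and genes along the left and lower edges were at the floor in WT or in LT. In all, 1415 genes lie above the upper dashed line or on it and 1152 below the lower one or on it.

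The extremes were unequal in the 2 directions. At least 4-fold higher were 226 genes and at least 4-fold lower 256 genes, but at least 8-fold higher were 36 and at least 8-fold lower 96, and at 16-fold the counts were 6 and 35. Among genes above the floor on both genotypes, 19 were at least 8-fold higher and 72 at least 8-fold lower. Of the called genes, 324 higher ones were at the floor in WT and 292 lower ones at the floor in LT, and their ratios are lower bounds.

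The largest ratios in favour of LT included genes outside the cell division lists. Bicc1, an RNA-binding protein, had a signal of 929.8 in WT and 9597 in LT, 10.3-fold higher, and both of its other probe sets passed 2-fold the same way. Golm1, a Golgi membrane protein, went from 736 in WT to 6382 in LT (8.67-fold). Car2, a cytosolic carbonic anhydrase, had 285 in WT and 2716 in LT (9.54-fold). Galectins, which bind sugars on cell surfaces, contributed Lgals2 (10.4-fold higher, 92 in WT and 958 in LT) and Lgals1 (7.34-fold, 177 in WT and 1300.1 in LT). Slfn9, of the Schlafen family, was 10.1-fold higher and Selenoh, a nuclear selenoprotein, 7.36-fold higher. Of genes that act in cytokinesis, Arhgap11a had 275 in WT and 2979.9 in LT and was 10.8-fold higher. Also of cytokinesis, and with WT at the floor, Gas2l3, which links actin and microtubules, had 106 in WT and 1702 in LT (at least 12.1-fold), and Chmp4c, a subunit of the membrane-cutting ESCRT machinery, was at least 9.94-fold higher. The other probe set of Gas2l3 gave a log2 ratio of 0.61 and that of Chmp4c 0.32. Among other genes at the floor in WT, Bex1 had 16.4 in WT and 1629 in LT (at least 18-fold higher) and Osbpl3, an oxysterol-binding protein relative, 90.8 in WT and 1429 in LT (at least 10.2-fold).

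At the other end, the 30 largest ratios in favour of WT included genes of transport and of conjugation. Aqp8, a water channel of hepatocytes, had a signal of 2952 in WT and 111 in LT and was 26.6-fold lower. Keg1, a relative of the glycine acyltransferases, was 25.1-fold lower (4285 in WT and 170.5 in LT). Slco2b1, an organic anion importer, had 7305 in WT and 306 in LT (23.9-fold). Rgn, regucalcin, an enzyme of the ascorbate route, went from 9579.9 to 570.2 (16.8-fold), beside Gulo, the last enzyme of that route, at 3863 and 126. Inmt, an indole N-methyltransferase, had 7947 in WT and 483 in LT (16.5-fold). Among genes at the floor in LT, Wfdc21 had 2934 in WT and 78.6 in LT (at least 32.5-fold lower), the acetyltransferase relative Nat8f2 2736 in WT and 46.3 in LT (at least 30.3-fold) and the uncharacterised 1810008I18Rik 5149.8 in WT and 87.7 in LT (at least 36.7-fold). The WT signal stood far above the floor in each of these, and Inmt and Rgn kept LT signals above it as well (483 and 570.2, against 90.4).

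Cell division genes had more members higher than lower in each of 12 lists, which run from the licensing of origins to cytokinesis. Across these lists, which hold 282 distinct measured genes, 181 (64.2%) were higher against 11.1% of all measured genes. The median log2 ratio of the 282 was 1.47. Pole4 and Nsl1 were the 2 that were lower. The lists were drawn up with earlier results of these data known, so their direction is a description.

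Before replication, origins are licensed by loading the MCM helicase and are then fired by kinases. Of these genes, 16 of 27 measured members were higher and 0 lower, with a median log2 ratio of 1.66. The helicase subunit Mcm6 had a signal of 244 in WT and 1828 in LT (7.48-fold), Mcm2 94.3 in WT and 733 in LT (7.78-fold) and Mcm5 246 in WT and 1798 in LT (7.30-fold). Gins2, of the GINS complex that activates the helicase, had 104 in WT and 2247 in LT (at least 16-fold). Dbf4, which activates the firing kinase, was at least 6.91-fold higher. Gmnn, geminin, an inhibitor of relicensing, was higher too, 122 in WT and 771 in LT, by 6.32-fold. At the fork, 20 of 31 measured members were higher and 1 lower, with a median log2 ratio of 1.44. Prim1, the catalytic primase subunit, had 259 in WT and 1698 in LT (6.55-fold), the clamp Pcna 969 in WT and 4027 in LT (4.16-fold) and the fork protection protein Timeless 51.9 in WT and 839 in LT (at least 9.28-fold). Fen1, which trims flaps from lagging strands, was at least 5.15-fold higher, the clamp loader subunit Rfc4 at least 3.91-fold and the checkpoint mediator Clspn 4.51-fold. Pole4, a small subunit of polymerase epsilon, was at least 2.83-fold lower (397 in WT and 85.6 in LT), and its other probe sets gave log2 ratios of -0.27 and 0.47.

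Deoxynucleotides are supplied by ribonucleotide reductase, the rate-limiting enzyme, and by salvage. Of that list, 7 of 17 measured members were higher and 0 lower, with a median log2 ratio of 0.55. Both subunits of ribonucleotide reductase were higher, Rrm1 with 151 in WT and 1087 in LT (7.21-fold) and Rrm2 with 159.8 in WT and 1119 in LT (7.0-fold). Ctps, which makes CTP, was at least 4.43-fold higher, the dUTPase gene Dut 3.12-fold, and the thymidine kinase gene Tk1 2.37-fold. The other 10 members did not pass 2-fold.

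Among the regulators themselves, the E2F, pocket protein and DREAM list was higher in fewer members: 7 of 20 measured members were higher and 0 lower, with a median log2 ratio of 0.46. Lin54, the DNA-binding subunit of DREAM, had 86.6 in WT and 1059.7 in LT (at least 7.54-fold). Tfdp1, the partner of E2F factors, had 211 in WT and 923 in LT (4.38-fold). E2f8, a repressor E2F, was at least 3.77-fold higher, E2f2, an activator, 2.89-fold and E2f1, another activator, at least 2.15-fold (82.7 in WT and 195 in LT). The other 2 probe sets of E2f1 were not past 2-fold, at log2 ratios of 0.13 and 0.18. Foxm1, a transcription factor of mitotic genes, was 2.56-fold higher (166 in WT and 424 in LT). Rb1, the retinoblastoma gene, gave a log2 ratio of 0.42 (90.3 in WT and 121 in LT), a bound since WT was at the floor. Its relative Rbl1 was 3.88-fold higher, although another probe set of Rbl1 gave -0.08. Of cyclins, their kinases and kinase inhibitors, 16 of 27 measured members were higher and 0 lower, with a median log2 ratio of 1.46. Cdk1, the mitotic kinase, had 303 in WT and 2288 in LT (7.54-fold), its cyclins Ccnb2 135 in WT and 1868 in LT (13.8-fold) and Ccna2 220.1 in WT and 1404 in LT (6.38-fold). The inhibitor gene Cdkn1a, which encodes p21, was also higher, with 215 in WT and 881 in LT (4.11-fold).

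In the chromosomes, 17 of 23 measured genes of condensin, cohesin and chromosome structure were higher and 0 lower (median log2 ratio 1.63). Top2a, which untangles DNA, had 169 in WT and 2508 in LT (14.9-fold), while its other probe set gave a log2 ratio of 0.63. The condensin subunit Smc4 had 246 in WT and 1805 in LT (7.34-fold), with both other probe sets past 2-fold. Smc2, its partner, was at least 7.69-fold higher on the brightest probe set, but its other probe sets gave -0.37 and -0.02. Of genes for chromatin copied with the DNA, 18 of 26 measured members were higher and 0 lower, with a median log2 ratio of 1.5. The maintenance methyltransferase Dnmt1 had 253 in WT and 1166 in LT (4.61-fold), the Polycomb methyltransferase Ezh2 119 in WT and 569 in LT (4.79-fold), and the histone chaperone Asf1b 138 in WT and 617 in LT (4.46-fold). Atad2 was 9.63-fold higher and the histone chaperone Nasp 5.47-fold, yet other probe sets ran from -0.86 to 0.12 for Atad2 and from -0.65 to 0.90 for Nasp. Most replication-dependent histone genes were at the floor or had no probe set. Of 5 measured histone genes, H1f2, H2aw and H2az2 were higher, H2ac19 was lower and H2bc18 was not past 2-fold.

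Of mitotic kinases and spindle checkpoint genes, all 19 measured were higher (median log2 ratio 2.23, from 2.09 to 2.52 over 6 scalings). Bub1b, a checkpoint protein, had 64.6 in WT and 2445 in LT (at least 17.4-fold), and Bub1 had 3.7 in WT and 551 in LT (at least 6.09-fold). Birc5, survivin, which works with the Aurora B kinase, had 57.2 in WT and 1069 in LT (at least 11.8-fold), and the checkpoint effector Mad2l1 139 in WT and 985 in LT (7.11-fold). Of kinetochore genes, 19 of 29 measured members were higher and 1 lower, with a median log2 ratio of 1.42. Cenpu had 144 in WT and 1078 in LT (7.49-fold) and Cenpi, of the same inner complex, 23.3 in WT and 1127 in LT (at least 8.02-fold). Cenpa, the centromeric histone, was 6.87-fold higher on its brightest probe set and -0.25 on the log2 scale on the other. Nsl1, of the complex that links centromeres to microtubules, was 2.12-fold lower on its brightest probe set and 1.57 on the log2 scale on the other. Mitotic kinesins, motors that build and move the spindle, had 9 of 12 members higher (median 1.72). Kif20b had 221 in WT and 2587 in LT (11.7-fold), Cenpe 277 in WT and 3113 in LT (11.2-fold) and Kif20a 71.6 in WT and 657 in LT (at least 7.27-fold). Kif15, Kif24 and Kif2a were not past 2-fold.

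Of the anaphase-promoting complex and its regulators, 11 of 19 measured members were higher and 0 lower, with a median log2 ratio of 1.18. Ube2c, which hands ubiquitin to that complex, had 149 in WT and 2138 in LT (14.3-fold), its partner Ube2s 113 in WT and 699 in LT (6.18-fold), and the activator Cdc20 376 in WT and 2835 in LT (7.54-fold), with both other Cdc20 probe sets past 2-fold. Fbxo5, an inhibitor of the complex, was at least 6.91-fold higher, and Pttg1, securin, 4.10-fold. Of spindle, centrosome and cytokinesis genes, 24 of 34 measured members were higher and 0 lower, with a median log2 ratio of 1.8. Prc1, which bundles midzone microtubules, had 120.3 in WT and 999 in LT (8.30-fold). Anln, anillin, of the cleavage furrow, had 85.7 in WT and 711 in LT (at least 7.87-fold), and the furrow exchange factor Ect2 27.2 in WT and 569 in LT (at least 6.30-fold). The other probe set of Anln gave a log2 ratio of 0.63.

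**Figure D2:**
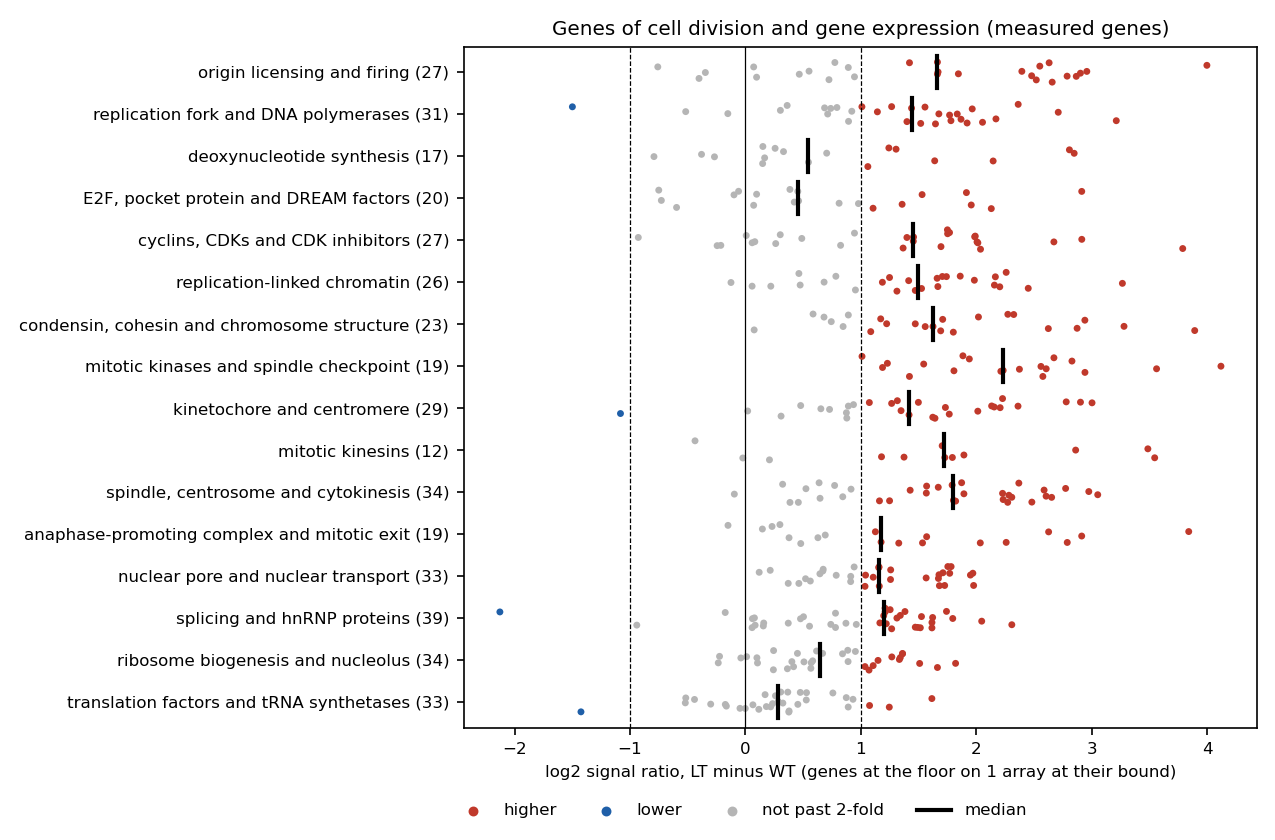
Log2 ratio of signal (LT minus WT, x axis) of each measured gene, a point, in 12 lists of cell division genes and, in the 4 lowest rows, lists for RNA handling and protein synthesis, with the number of measured genes in brackets and a black bar at the median. Dashed lines mark 2-fold, and all points of the mitotic kinase and checkpoint list lie at or beyond the right one.

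To see what the promoters of these genes share, the 250 bases before the start of each gene in the RefSeq table (build GRCm38.p6) were searched on both strands. Of 12775 measured genes, 10307 (80.7%) had a promoter there. The searched letters were, for E2F, TTTCCCGC, TTTGGCGC, TTTCGCGC or TTTGCCGC, variants that can overlap each other. For the cell cycle homology region (CHR), which DREAM binds at mitotic genes, they were TTTGAA or TTCGAA. For the CCAAT box they were CCAAT. An E2F motif was in 6.40% of 1171 promoters of higher genes, in 3.10% of 8234 promoters of genes not past 2-fold, in 1.33% of 902 promoters of lower genes and in 1.91% of all 27025 promoters of the table. At 4-fold or more, it was in 5.91% of promoters of higher and 1.94% of lower genes. The 12 cell division lists were uneven: 8 of 20 promoters held it for origin licensing and firing and 5 of 15 for the E2F, pocket protein and DREAM list, but none of the promoters in 4 lists, those of deoxynucleotide synthesis (0 of 15), mitotic kinases (0 of 16), the anaphase-promoting complex (0 of 18) and the spindle (0 of 30). A CCAAT box was more frequent than in all promoters (34.5%) in both directions, in 40.7% of promoters of higher and 38.1% of lower genes and, at 4-fold or more, in 55.4% and 46.1%. The CHR letters, being short, were common everywhere: they were in 13.7% of promoters of higher genes, 15.1% of lower genes and 17.4% of all promoters. They were in 12.2% of promoters of genes not past 2-fold and, at 4-fold or more, in 19.9% of higher and 13.1% of lower genes. Over the 12 lists the counts ran from 2 of 26 for the replication fork to 9 of 17 for condensin and cohesin. A match of letters is a description of the window and does not show that a factor binds.

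The sequences below show how these motifs sit in the promoters of 1 licensing gene and 3 mitotic genes that were among the highest, each being the 150 bases before the start, 5′ to 3′ on the gene's own strand, from RefSeq (GRCm38.p6). Capitals mark E2F, CHR and CCAAT motifs on either strand, and the 4 genes were chosen as illustrations after their motifs were seen. Mcm6 lies on the minus strand at chr1:128359706-128359855, Cdk1 on the minus strand at chr10:69352913-69353062, Top2a on the minus strand at chr11:99024190-99024339 and Ube2c on the plus strand at chr2:164769779-164769928.
Mcm6: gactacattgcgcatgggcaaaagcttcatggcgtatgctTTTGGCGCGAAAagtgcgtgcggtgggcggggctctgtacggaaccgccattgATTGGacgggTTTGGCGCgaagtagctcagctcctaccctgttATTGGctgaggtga
Cdk1: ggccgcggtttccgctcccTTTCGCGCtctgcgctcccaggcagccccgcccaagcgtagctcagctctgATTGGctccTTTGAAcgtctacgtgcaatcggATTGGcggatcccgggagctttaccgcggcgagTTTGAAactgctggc
Top2a: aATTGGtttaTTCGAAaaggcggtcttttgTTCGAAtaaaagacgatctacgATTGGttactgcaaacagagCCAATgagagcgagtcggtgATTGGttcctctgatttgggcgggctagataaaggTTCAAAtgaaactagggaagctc
Ube2c: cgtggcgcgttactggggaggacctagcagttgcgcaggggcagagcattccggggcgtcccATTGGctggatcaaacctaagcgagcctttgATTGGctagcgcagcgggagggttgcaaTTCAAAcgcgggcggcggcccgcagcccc
In Mcm6, E2F motifs begin at -110, -106 and -47 relative to the start, the 110 and 106 matches overlapping on opposite strands, and CCAAT boxes at -57 and -14. In Cdk1 an E2F motif begins at -131, CHR letters at -71 and -15 and CCAAT boxes at -80 and -48. Top2a has no E2F match in these 150 bases, CHR letters at -140, -120 and -23, and CCAAT boxes at -149, -98, -78 and -58. Ube2c has CHR letters at -29 and CCAAT boxes at -88 and -57.

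Genes that move and process RNA were examined next. Of nuclear pore and transport genes, 20 of 33 measured members were higher and 0 lower, with a median log2 ratio of 1.16. The exportin gene Xpo1 had 290.3 in WT and 1138 in LT (3.92-fold), Ranbp1, which acts on the Ran GTPase, 490.1 in WT and 1894 in LT (3.87-fold), and the pore subunit Nup107 a WT signal at the floor and 356 in LT (at least 3.94-fold). Of splicing factors and hnRNP proteins, 21 of 39 measured members were higher and 1 lower, with a median log2 ratio of 1.2. Snrpf, a core protein of spliceosomal particles, had 202 in WT and 1003 in LT (4.96-fold), Snrpb 2426 in WT and 8122 in LT (3.35-fold) and the splicing regulator Srsf3 568 in WT and 1749 in LT (3.08-fold). Ptbp1, a splicing repressor, was 4.37-fold lower on its brightest probe set, while others gave -0.56 and 0.64. Ribosome biogenesis genes had 12 of 34 members higher (median 0.64), among them the nucleolar GTPase gene Gnl3 (2.57-fold) and the box C/D particle protein Nop56 (2.85-fold). Cytosolic ribosomal proteins had 3 of 30 higher (10%, near the 11.1% of all measured genes), Rpl12, Rplp2 and Rps3, with a median of 0.71. Translation factors and tRNA synthetases had 3 higher (9.1%) and 1 lower (3%) of 33 (median 0.28). Vars, the valine enzyme, was 3.07-fold higher and Tars, the threonine enzyme, 2.68-fold lower.

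Genes of DNA repair had more members higher than lower in both of their lists (42.9% and 30.4% higher, against 11.1% of all measured genes). Of damage signalling and homologous recombination genes, 15 of 35 measured members were higher and 1 lower, with a median log2 ratio of 0.92. Brca1 was at least 4.61-fold higher (36.6 in WT and 416 in LT), Fancb, of the crosslink repair complex, 4.99-fold and the deubiquitinase Usp1 2.92-fold. The other probe set of Brca1 gave a log2 ratio of 0.55. Fancc was 2.31-fold lower, with other probe sets from -0.44 to 0.43. Of 23 excision and mismatch repair genes, 7 were higher and 0 lower (median 0.33), with the mismatch gene Msh6 2.63-fold and the scaffold Xrcc1 2.96-fold higher. Targets of p53 had 2 higher, Cdkn1a and Ckap2, and 2 lower, Dcxr and Ephx1, of 24, with a median of 0.01 (from -0.19 to 0.35 over 6 scalings). These shares, 8.3% each way, were near the 11.1% higher and 9.02% lower of all measured genes. Cdkn1a and Ckap2 are also members of the cell division lists. Ephx1, an epoxide hydrolase, had 3071 in WT and 1283 in LT, and Dcxr, a xylulose reductase, 2360.4 in WT and 344 in LT. Both are enzymes that hepatocytes also express. Mdm2, which degrades p53, had 219 in WT and 340.4 in LT (log2 ratio 0.63, other probe sets -0.74 and 0.78), and Ccng1 297 in WT and 154 in LT (log2 ratio -0.94, others from -0.53 to 0.64).

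Of 26 apoptosis genes, 4 were higher (15.4%, against 11.1% of all measured genes) and 0 lower (median -0.08, from -0.23 to 0.38 over 6 scalings). Higher were Birc5, Casp2 (3.16-fold), Bcl2l11, which encodes Bim (2.87-fold, another probe set -0.34 on the log2 scale), and Bid (2.12-fold). Of 12 measured PP2A subunits, the target of st, 3 were higher and 0 lower: the catalytic subunit Ppp2cb (151 in WT and 603 in LT, 4.0-fold) and the regulatory subunits Ppp2r5e (2.81-fold) and Ppp2r2a (2.54-fold).

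Of oncofetal and imprinted genes, 13 of 20 measured members were higher and 0 lower, with a median log2 ratio of 1.66. Afp, alpha-fetoprotein, the fetal counterpart of albumin, had 65.7 in WT and 7711 in LT (at least 85.3-fold). Igf2, a fetal growth factor, had 47.2 in WT and 776 in LT (at least 8.59-fold), the cell surface proteoglycan Gpc3 91.5 in WT and 899 in LT (9.83-fold) and the small adaptor Bex3 23 in WT and 2581 in LT (at least 28.6-fold). Igf2bp3, which binds Igf2 messenger RNA, had 767 in WT and 2507 in LT (3.27-fold), while its relative Igf2bp1 was -0.14 on the log2 scale with LT at the floor. Cd24a, a surface protein of progenitors, was at least 6.03-fold higher. Sox4 was at least 7.32-fold higher on its brightest probe set and -0.16 on the log2 scale on the other.

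Tubulins and stathmin had 6 of 12 members higher and 0 lower (median 0.88). Tubb6 had 153 in WT and 1789 in LT (11.7-fold), Tubb5 1839.8 in WT and 5839 in LT (3.17-fold), and Stmn1, stathmin, which takes microtubules apart, 849 in WT and 4167 in LT (4.91-fold). Actin and its binding proteins had 9 of 32 higher and 0 lower (median 0.39). The membrane-binding annexins Anxa2 (687 in WT and 3255 in LT, 4.74-fold) and Anxa5 (853 in WT and 3791 in LT, 4.45-fold), the thymosin Tmsb10 (4.11-fold) and the non-muscle myosin Myh9 (4.01-fold) were among them. Keratin and epithelial junction genes had 3 higher and 3 lower of 23 (median 0.22). That is 13% each way, near the 11.1% and 9.02% of all measured genes. The adhesion receptor Cxadr was 5.90-fold higher (1050.1 in WT and 6192 in LT) and F11r 2.68-fold higher. The gap junction genes Gjb1 and Gjb2 were 2.95-fold and 3.26-fold lower and the claudin Cldn2 4.68-fold lower. Slpi, a secreted protease inhibitor, had 183 in WT and 3265 in LT (17.8-fold), and Spink1, a trypsin inhibitor, 15.6 in WT and 323 in LT (at least 3.58-fold).

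**Figure D3:**
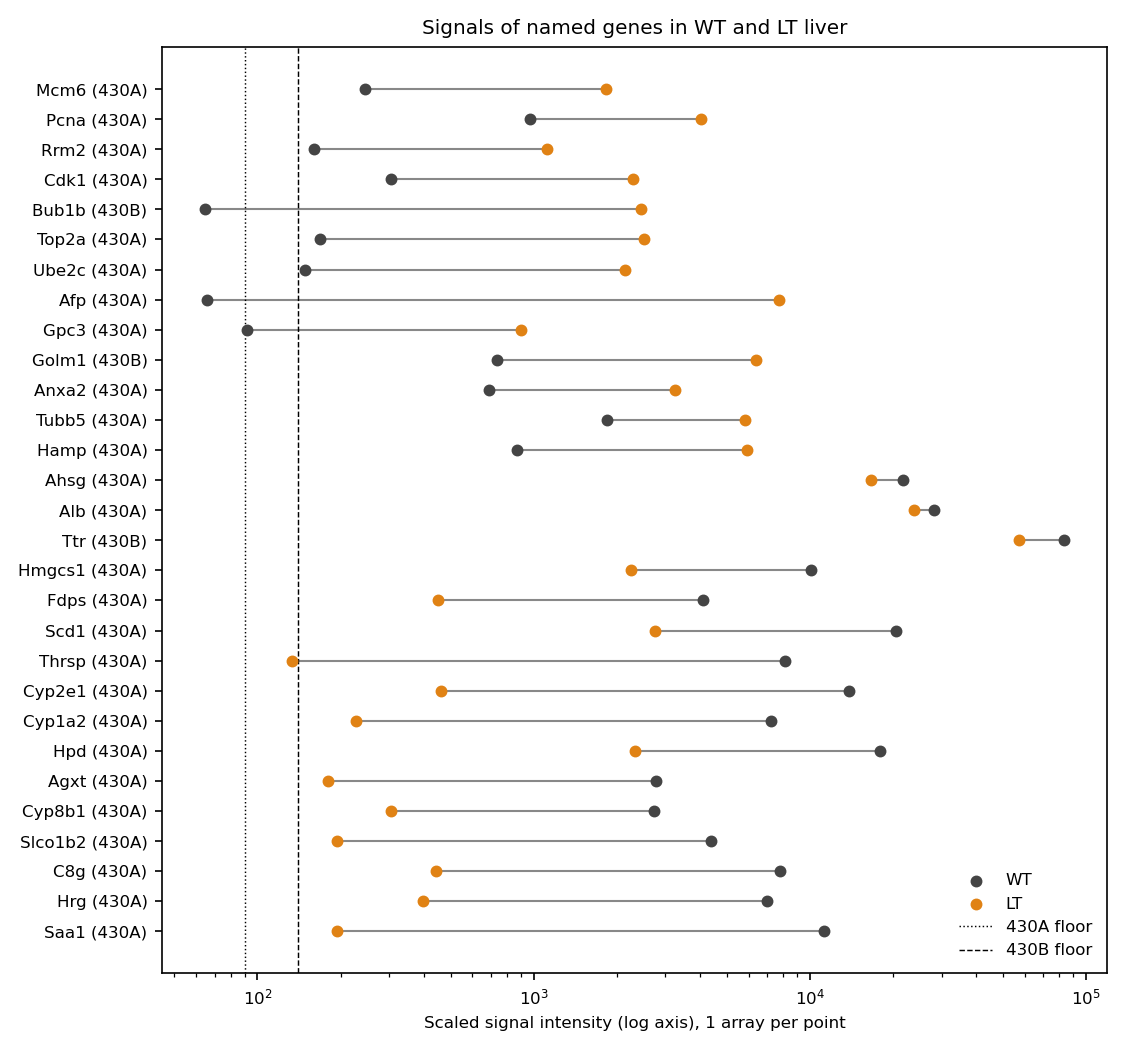
Scaled signal (x axis, log scale) of 29 named genes in WT (dark) and LT (orange), 1 array per point, with the array design in brackets and dotted and dashed lines at the floors of 430A and 430B. Apart from Pcna, which is brighter, the cell division genes at the top have WT signals of 303 or less. Alb, Ttr and Ahsg stay within 2-fold, and the genes below them drop from high WT signals.

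Genes that act on drugs and foreign compounds had a median log2 ratio below 0 in each enzyme class listed here, from -2.52 for the cytochrome P450 family 1 genes to -0.91 for the glutathione transferases. Of the cytochrome P450 family 2 genes, 16 of 23 measured members were lower and 0 higher, with a median log2 ratio of -2.42, against 9.02% of all measured genes. Cyp2e1, which oxidises ethanol and small molecules, had 13906 in WT and 460.1 in LT (30.2-fold). Cyp2c50 had 6783 in WT and 126 in LT (54-fold), Cyp2c54 3014 in WT and 27.4 in LT (at least 33.3-fold) and Cyp2j5, an epoxygenase, 5259.9 in WT and 441 in LT (11.9-fold). For Cyp2j5, another probe set gave a log2 ratio of -0.83. Of families 3 and 4, 8 of 10 measured members were lower and 0 higher, with a median log2 ratio of -2.01. The fatty acid hydroxylase Cyp4a12a had 3801 in WT and 157 in LT (24.2-fold), and Cyp4f14 3211 in WT and 452 in LT (7.10-fold). Cyp3a25 was 4.96-fold lower. Cyp3a11, the main drug-oxidising P450 of mouse liver, was not, with 13870.5 in WT and 11478 in LT (log2 ratio -0.27), nor was Cyp3a13 (-0.64). In family 1, Cyp1a2, which oxidises caffeine, had 7265 in WT and 227 in LT (32-fold), while Cyp1a1 was near the floor on both.

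Of UDP glucuronosyltransferases and sulfotransferases, 12 of 18 measured members were lower and 1 higher, with a median log2 ratio of -1.1. Ugt3a2 had 5769.6 in WT and 63.1 in LT (at least 63.8-fold), Ugt2b1 5421 in WT and 641 in LT (8.45-fold) and Sult1a1 5091 in WT and 1334 in LT (3.82-fold). Sult2a8 had 15913 in WT and 276 in LT (57.6-fold lower), whereas Sult2a2, a paralog, had 51.4 in WT and 521 in LT (at least 5.76-fold higher). Glutathione transferases had 9 of 20 members lower and 1 higher (median -0.91). Gstm6 was at least 7.20-fold lower, Gsta3 3.44-fold and Gstz1, which also acts in tyrosine breakdown, 3.51-fold. Gstcd, which carries a transferase-like domain, was 2.58-fold higher. Of carboxylesterases and amidases, 9 of 15 measured members were lower and 0 higher, with a median log2 ratio of -1.57. Ces1f had 3725 in WT and 42.8 in LT (at least 41.2-fold), Ces1d 3801 in WT and 453 in LT (8.39-fold) and the esterase Pon1, carried on plasma lipoproteins, 11539 in WT and 797 in LT (14.5-fold).

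Of flavin monooxygenases and the dehydrogenases and oxidases of alcohols and aldehydes, 19 of 29 measured members were lower and 1 higher, with a median log2 ratio of -1.13. The aldehyde oxidases Aox3 (2768 in WT and 198 in LT, 14-fold) and Aox1 (1307 in WT and 129 in LT, 10.1-fold) and the alcohol dehydrogenase Adh4 (2873 in WT and 408 in LT, 7.04-fold) had the largest ratios. Aldh1b1 was the member that was higher (2.10-fold). Of hydroxysteroid dehydrogenases and aldo-keto reductases, 12 of 24 measured members were lower and 2 higher, with a median log2 ratio of -0.97. Hsd11b1, which makes active glucocorticoid, had 7524 in WT and 531 in LT (14.2-fold), and Hsd3b5 2493 in WT and 1.7 in LT (at least 27.6-fold). Hsd17b13, a lipid droplet enzyme, went the other way on its brightest probe set, 1355 in WT and 11106 in LT (8.19-fold higher), but its other probe set gave -0.75 on the log2 scale. Akr1c19 was also higher, 1001 in WT and 3811 in LT (3.81-fold).

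Of cholesterol synthesis genes, 17 of 18 measured members were lower and 0 higher, with a median log2 ratio of -1.98. Hmgcs1, the synthase at the head of the mevalonate route, had 10075 in WT and 2258 in LT (4.46-fold), with all 3 other probe sets past 2-fold the same way. Idi1, the isopentenyl isomerase, had 2108 in WT and 304 in LT (6.94-fold) and Fdps, farnesyl diphosphate synthase, 4095 in WT and 449 in LT (9.12-fold). After squalene, Msmo1 had 2232 in WT and 191 in LT (11.7-fold), Nsdhl 1671 in WT and 319 in LT (5.24-fold) and Sc5d 7358 in WT and 840.1 in LT (8.76-fold). Ggps1, which makes geranylgeranyl diphosphate, a branch off the route, was the member not past 2-fold (log2 ratio -0.09). Sterol sensing was lower in part, with 4 of 15 genes: Insig1 and Insig2, which retain the sterol sensor in the endoplasmic reticulum, had 11479 in WT and 1122 in LT (10.2-fold) and 4108 in WT and 572 in LT (7.18-fold). Scap, that sensor, was 3.72-fold lower and Stard4, a sterol carrier, 2.02-fold. None of the 15 was higher. A CCAAT box was in 14 of 15 promoters of the cholesterol synthesis list and the sterol element TCACNCCAC in 1 of them, against 34.5% and 1.04% of all promoters.

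Of de novo fatty acid synthesis and triglyceride assembly genes, 20 of 29 measured members were lower and 1 higher, with a median log2 ratio of -1.35. Thrsp, a regulator of lipogenesis, had 8155 in WT and 134 in LT (61-fold). Acss2, which makes acetyl-CoA from acetate, had 3281 in WT and 298 in LT (11-fold), the carboxylase Acacb 960.2 in WT and 7.5 in LT (at least 10.6-fold), the desaturase Scd1 20458 in WT and 2750.4 in LT (7.44-fold) and the elongase Elovl5 7679 in WT and 1097 in LT (7.0-fold). Scd2, another desaturase, was the member that was higher (209 in WT and 634 in LT, 3.03-fold). Of 23 fatty acid oxidation and ketogenesis genes, 5 were lower and 0 higher (median -0.32, from -0.57 to 0.16 over 6 scalings). Of peroxisomal genes, 13 of 29 measured members were lower and 0 higher, with a median log2 ratio of -0.94, led by the thiolase Acaa1b (14585 in WT and 2113 in LT, 6.90-fold), the bifunctional enzyme Ehhadh (1716 in WT and 268 in LT, 6.41-fold) and Hacl1 (3318 in WT and 521 in LT, 6.37-fold), which shortens branched acids. In a separate list of acyl-CoA thioesterases, 2 of 12 measured members were higher (16.7%) and 1 lower (8.3%), with a median of 0.14. Of these, Acot2 had 134 in WT and 2012 in LT (at least 14.3-fold higher). It is a close paralog of Acot1, so its value is uncertain.

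**Figure D4:**
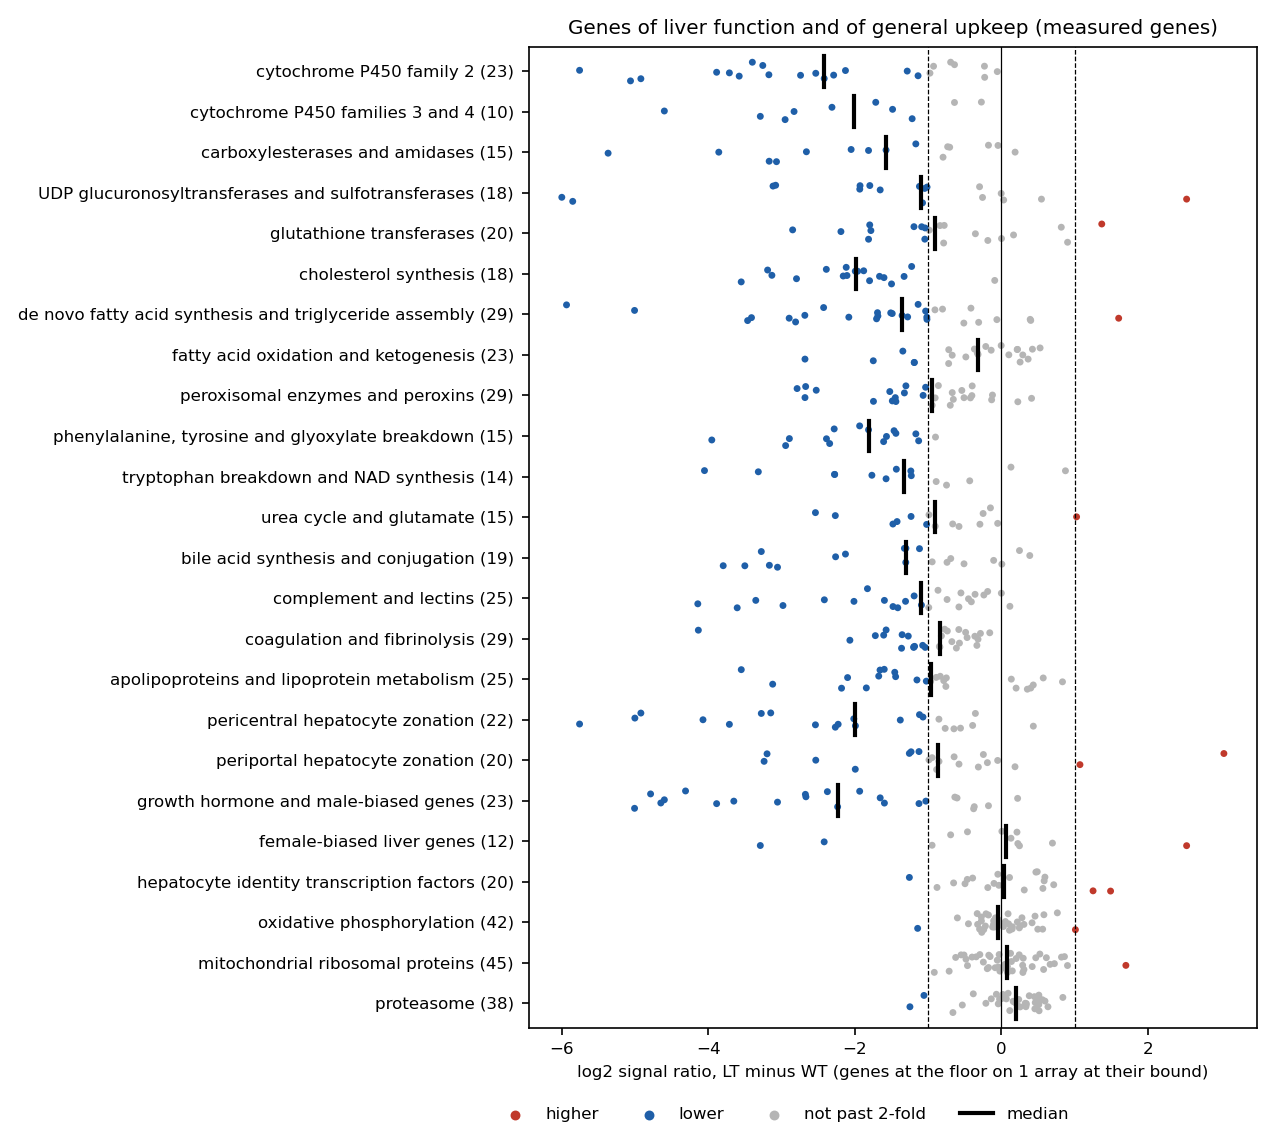
Log2 ratio of signal (LT minus WT, x axis) of each measured gene, a point, in 24 lists of liver function and general upkeep, with the number of measured genes in brackets and a black bar at the median. Dashed lines mark 2-fold. Most points of the cholesterol list and the phenylalanine and tyrosine list lie left of the left line, whereas those of oxidative phosphorylation, mitochondrial ribosomes and the proteasome lie between the lines.

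Of genes that break down phenylalanine, tyrosine and glyoxylate, 14 of 15 measured members were lower and 0 higher, with a median log2 ratio of -1.81. Hpd had 17956 in WT and 2335 in LT (7.69-fold), Hgd 5703 in WT and 1091 in LT (5.23-fold) and Fah 6658 in WT and 1370.0 in LT (4.86-fold), which are consecutive or near-consecutive enzymes of tyrosine breakdown. Agxt, which detoxifies glyoxylate, had 2776 in WT and 179.6 in LT (15.5-fold), and Qdpr, which recycles the cofactor of phenylalanine hydroxylase, 5291 in WT and 1043 in LT (5.07-fold). Pcbd1, also of cofactor recycling, was the member not past 2-fold (-0.90). Of tryptophan breakdown and NAD synthesis genes, 9 of 14 measured members were lower and 0 higher, with a median log2 ratio of -1.33. Haao had 6293 in WT and 379.9 in LT (16.6-fold), Kyat1 2242 in WT and 225 in LT (9.96-fold), Kynu 8354 in WT and 1725 in LT (4.84-fold) and Tdo2, which opens the ring of tryptophan, 7792 in WT and 3309 in LT (2.35-fold). Methionine and one-carbon genes had 9 of 26 lower and 0 higher (median -0.56), including Pemt (6.56-fold), which methylates phospholipid, and Gnmt (3.28-fold), which uses up methyl groups. The urea cycle and glutamate list had 6 of 15 lower and 1 higher (median -0.90). Otc had 5298 in WT and 1976 in LT (2.68-fold) and Arg1 8923 in WT and 3798 in LT (2.35-fold), while the entry enzyme Cps1 had 16142 in WT and 15579 in LT (log2 ratio -0.05). Gpt2, a mitochondrial alanine transaminase, was 2.04-fold higher, but its other probe sets gave log2 ratios from 0.35 to 0.38. Its cytosolic relative Gpt was 2.79-fold lower, although another probe set of Gpt gave 0.14.

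Of 23 glycolysis isozymes and glucose transport genes, 3 were higher and 4 lower, with a median of 0.00 (from -0.29 to 0.40 over 6 scalings). These shares were 13% and 17.4%, against 11.1% and 9.02% of all measured genes. Pklr, the liver pyruvate kinase, had 919 in WT and 168 in LT (5.47-fold lower), and Pkm, the form of growing tissues, 217 in WT and 439 in LT (2.02-fold higher). Pfkp, the platelet phosphofructokinase, was 3.12-fold higher (143 in WT and 447 in LT) and the aldolase Aldoa 2.12-fold higher (2501 in WT and 5300.4 in LT), whereas Aldoc, the aldolase of brain, was 2.37-fold lower (282 in WT and 119 in LT). Khk, fructokinase, had 3554 in WT and 857 in LT (4.15-fold lower) and Gckr, the regulator of glucokinase, was 2.76-fold lower. Of gluconeogenesis and glycogen genes, 10 of 23 measured members were lower and 2 higher, with a median log2 ratio of -0.96, which turned to 0.19 on the 430B design alone. Pcx, pyruvate carboxylase, had 3302 in WT and 669 in LT (4.94-fold), the glycogen phosphorylase Pygl 5299.5 in WT and 1033 in LT (5.13-fold) and glucose-6-phosphatase, G6pc, 6026 in WT and 2523 in LT (2.39-fold). Pck2, the mitochondrial form of the rate-limiting carboxykinase, was at the floor in WT and at least 3.42-fold higher, and Gyg, glycogenin, 3.43-fold higher.

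Of bile acid synthesis and conjugation genes, 11 of 19 measured members were lower and 0 higher, with a median log2 ratio of -1.3. Cyp7a1, the rate-limiting enzyme of the classical route, was 2.17-fold lower (739 in WT and 341 in LT), with its other probe set at -0.51 on the log2 scale. Cyp8b1, which sets the share of cholic acid, had 2736 in WT and 305 in LT (8.97-fold), Cyp27a1, of the alternative route, 4270.2 in WT and 441 in LT (9.68-fold) and Cyp7b1 1316 in WT and 158 in LT (8.31-fold). Hsd3b7 had 6321 in WT and 559 in LT (11.3-fold), and Slc27a5, which activates bile acids for conjugation, 7874 in WT and 567 in LT (13.9-fold). Importers were lower with them: Slco1b2 had 4377 in WT and 195 in LT (22.5-fold), Slco1a1 2263 in WT and 11 in LT (at least 25-fold) and the organic anion transporter Slc22a7 1806 in WT and 75 in LT (at least 19.98-fold). By contrast, 3 genes whose products export bile acids or drugs to the blood or bile were higher from a WT signal at the floor: Slc51b (139 in WT and 729 in LT, at least 5.19-fold), Abcc4 (at least 2.32-fold) and Abcb1a (at least 2.19-fold). Of the 20 measured transporters, 10 were lower and 3 higher (median -0.98, and 0.15 on the 430B design alone).

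Promoters of lower genes were searched for the letters of liver factors in the same way. HNF4 letters (CAAAGTCCA or CAAAGGTCA) were in 5 of 206 promoters of genes at least 4-fold lower (2.43%), in 1 of 186 at least 4-fold higher (0.538%) and in 0.788% of all promoters. C/EBP letters (TTGCGCAA or TTGCACAA) were in 8 of the 206 (3.88%), in 2 of the 186 (1.08%) and in 1.08% of all. At 2-fold, HNF4 letters were in 1.44% of lower genes, 0.342% of higher genes and 0.668% of genes not past 2-fold. For C/EBP letters the difference was smaller at 2-fold, with 1.55% of lower genes, 1.02% of higher genes and 0.887% of genes not past 2-fold. The TATAAA box was in 16.5% of the 206, in 8.6% of the 186 and in 13% of all promoters, and at 2-fold in 12.2% of lower genes, 5.81% of higher genes and 6.84% of genes not past 2-fold. The HNF1 motif was in 17 promoters of the whole table and in 0 of those 206. The promoter of Hmgcs1, on the plus strand at chr13:119690201-119690350, is shown for its sterol element, and that of Cyp8b1, on the minus strand at chr9:121916306-121916455, for its HNF4 and TATA letters, which with CCAAT boxes are in capitals. Both are the 150 bases before the start, 5′ to 3′, from RefSeq (GRCm38.p6), and were chosen as illustrations after their motifs were seen.
Hmgcs1: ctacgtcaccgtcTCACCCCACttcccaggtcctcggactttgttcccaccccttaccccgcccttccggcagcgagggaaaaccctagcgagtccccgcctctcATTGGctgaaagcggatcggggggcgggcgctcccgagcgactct
Cyp8b1: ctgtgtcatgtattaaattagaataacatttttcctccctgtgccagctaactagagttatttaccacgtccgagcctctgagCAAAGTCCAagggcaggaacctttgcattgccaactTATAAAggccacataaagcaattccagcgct
In Hmgcs1 the sterol element begins at -137 and a CCAAT box at -45. In Cyp8b1 the HNF4 letters begin at -67 and the TATA box at -31.

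**Figure D5:**
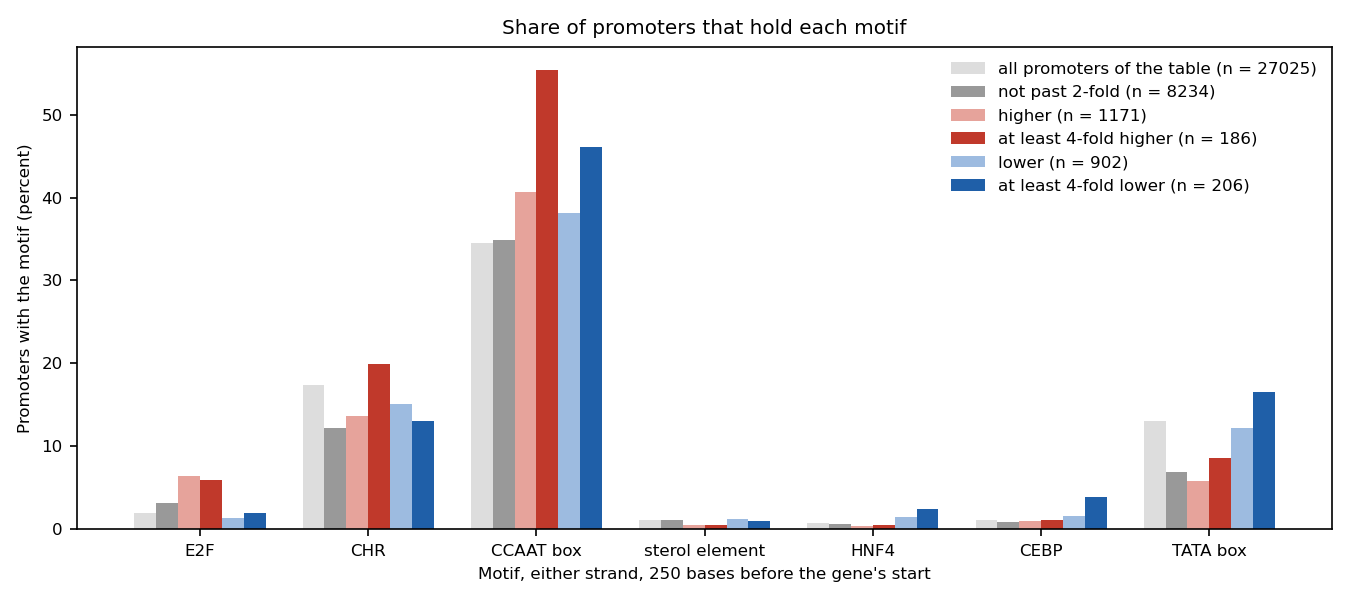
Percent of promoters (y axis, from 0) that hold each motif on either strand in the 250 bases before the start, by size and direction of the LT to WT ratio, with the number of promoters of each set in the legend. E2F letters were in 6.40% of promoters of higher and 1.33% of lower genes, and CCAAT boxes in 55.4% of promoters of genes at least 4-fold higher and 46.1% of those at least 4-fold lower.

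Secreted plasma proteins were lower in many members and unequal among them. Of complement and lectin genes, 13 of 25 measured members were lower and 0 higher, with a median log2 ratio of -1.09. C8g and C8a, of the membrane attack complex, had 7825 in WT and 443 in LT (17.6-fold) and 3839.6 in WT and 316 in LT (12.2-fold), and the mannose-binding lectins Mbl2 8411 in WT and 825 in LT (10.2-fold) and Mbl1 2848 in WT and 361 in LT (7.89-fold). Of coagulation genes, 13 of 29 measured members were lower and 0 higher, with a median log2 ratio of -0.84. Hrg, histidine-rich glycoprotein, had 6981 in WT and 398 in LT (17.6-fold), prothrombin, F2, 12589 in WT and 5218 in LT (2.41-fold), and plasminogen, Plg, 4313 in WT and 1678 in LT (2.57-fold). The fibrinogen chains Fgb and Fgg stayed within 2-fold, at -0.36 and -0.61 on the log2 scale. Of apolipoprotein and lipoprotein genes, 12 of 25 measured members were lower and 0 higher, with a median log2 ratio of -0.97. Apoa4 had 1519.6 in WT and 129.9 in LT (11.7-fold), Apoa2 20610.5 in WT and 4813 in LT (4.28-fold) and Apoe 23485 in WT and 7454 in LT (3.15-fold), while Apoa1 had 26647 in WT and 15445 in LT (log2 ratio -0.79). Of other plasma proteins, 17 of 31 measured members were lower and 1 higher, with a median log2 ratio of -1.38, with Afp the higher member. Fetub, a fetuin, was 9.83-fold lower and Lect2 8.85-fold lower.

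Of 25 acute phase genes, 9 were lower and 2 higher (median -0.61). Saa1 had 11241 in WT and 194 in LT (57.8-fold lower) and Orm1, orosomucoid, 4103 in WT and 154 in LT (26.6-fold lower). Hp and Hpx, which bind free hemoglobin and heme, were at -0.69 and -0.38 on the log2 scale. Lcn2, an iron-siderophore binding protein, was 2.48-fold higher (749 in WT and 1858 in LT). Of 18 serpins, 7 were lower and 2 higher (median -0.81, and 0.37 on the 430B design alone). Serpina4-ps1 had the lowest ratio, with 7270.4 in WT and 130.4 in LT (at least 51.7-fold lower), and Serpina3n was 10.2-fold lower (2111 in WT and 207 in LT). Serpina7, the thyroxine-binding globulin, had 587 in WT and 4102 in LT (6.99-fold higher). Serpinb6a, an intracellular serpin, was 2.41-fold higher. Hepcidin and iron handling genes had 3 of 18 higher (16.7%) and 2 lower (11.1%), with a median of -0.13. Of all measured genes, 11.1% were higher and 9.02% lower, so these shares are not far from those of all genes. Hamp, the iron hormone hepcidin, had 867 in WT and 5938 in LT (6.85-fold higher), and its other probe set passed 2-fold the same way. Id1 and Smad7, targets of the BMP signal that also drives hepcidin, were at least 2.93-fold and at least 2.34-fold higher from a WT signal at the floor, Tfr2, a sensor of iron-loaded transferrin, was 3.50-fold lower and Tmprss6, a protease that lowers hepcidin, 2.83-fold lower (10574 in WT and 3739 in LT). The metallothioneins Mt1 (686 in WT and 3927 in LT, 5.73-fold) and Mt2 (383 in WT and 1519 in LT, 3.97-fold) were higher. Their list, which includes zinc transporters, had 2 of 14 higher (14.3%) and 1 lower (7.1%).

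Genes expressed near the central vein had 15 of 22 members lower and 0 higher (median log2 ratio -2), and those near the portal vein 7 of 20 lower and 2 higher (median -0.87). Of the pericentral genes, Glul, glutamine synthetase, had 1971 in WT and 410.0 in LT (4.81-fold), Oat 2978 in WT and 513 in LT (5.80-fold) and the glutamate transporter Slc1a2 917 in WT and 227 in LT (4.04-fold). Of the periportal genes, Cyp2f2 had 17649 in WT and 3051 in LT (5.78-fold), Hal, histidase, 2355 in WT and 591 in LT (3.98-fold) and the immunoglobulin carrier Pigr 4818 in WT and 511 in LT (9.43-fold). Both lists include P450 genes and other members of the lists above, and no test of the difference between them was made. Of 23 genes that depend on growth hormone or are male-biased, 17 were lower and 0 higher (median -2.23), including Hsd3b5, Elovl3 (2900.5 in WT and 55.2 in LT, at least 32.1-fold), Mup3 (4732 in WT and 239 in LT, 19.8-fold) and Cyp2d9 (14.8-fold). Female-biased genes had 2 lower, Cyp4a14 and Cyp2b9, and 1 higher, Sult2a2, of 12 (median 0.07, from -0.26 to 0.30 over 6 scalings). The growth hormone receptor gene Ghr had 5260.1 in WT and 1377 in LT (3.82-fold lower), with both other probe sets past 2-fold, and its serum products Igf1 21524 in WT and 9873 in LT (2.18-fold) and Igfals 734 in WT and 142 in LT (5.18-fold).

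Of 25 growth factors and receptors of hepatocytes, Ghr, Igf1 and Igfals included, 6 were lower and 3 higher (24% and 12%, against 9.02% and 11.1% of all measured genes), with a median of -0.24 (from -0.49 to 0.24 over 6 scalings). Higher were Igf2, the receptor Igf2r (3.06-fold) and the FGF receptor Fgfr3 (2.27-fold). Of the lower ones, Lifr, the receptor of leukemia inhibitory factor, had 1755 in WT and 169.6 in LT (10.3-fold), the glucagon receptor Gcgr 1655 in WT and 418 in LT (3.96-fold) and Egfr 7759 in WT and 2397 in LT (3.24-fold). Of 7 binding proteins of IGF and of Igf2 messenger RNA, 3 were lower, Igfbp1 (4584 in WT and 709.8 in LT, 6.46-fold), Igfbp2 (2369.8 in WT and 371 in LT, 6.38-fold) and Igfbp3 (2.98-fold), and 1 higher, Igf2bp3. Igfbp4 and Igfbp7 were not past 2-fold (-0.74 and -0.62). Of metabolic nuclear receptors, 5 of 22 were lower and 0 higher (median -0.27). Nr1i3, the receptor CAR, which induces P450 genes, had 359 in WT and 14.6 in LT (at least 3.98-fold). Nr0b2, which represses bile acid synthesis, was 2.47-fold lower, and Ppara, which drives peroxisomal and fatty acid oxidation genes, 2.28-fold lower (2146 in WT and 941 in LT), though its other probe set gave -0.80.

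Core hepatocyte transcription factors were 10% higher and 5% lower, near the 11.1% and 9.02% of all measured genes. Of 20 measured, 17 did not pass, with a median of 0.04 (from -0.32 to 0.43 over 6 scalings). Hnf4a had 2981 in WT and 2621 in LT (log2 ratio -0.19) and Cebpa 2244 in WT and 1221 in LT (log2 ratio -0.88). Gata6 and Prox1 were 2.81-fold and 2.38-fold higher and Atf5 2.39-fold lower. Among immediate early genes, Egr1 had 159 in WT and 1166 in LT (7.34-fold higher), Jun 165 in WT and 438 in LT (2.66-fold) and Ier5 70.5 in WT and 441 in LT (at least 4.88-fold), with 7 of 18 members higher and 0 lower (median 0.78). Myc was at the floor in WT and reached 181 in LT (at least 2.0-fold higher), and Mlxipl, the carbohydrate response factor ChREBP, was 2.02-fold lower (3625 in WT and 1790.4 in LT).

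Of all measured genes, 11.1% were higher and 9.02% lower. Oxidative phosphorylation, mitochondrial ribosomal proteins, the proteasome and the unfolded protein response had smaller shares each way. Oxidative phosphorylation had 40 of 42 genes within 2-fold, with Ndufa5 higher, Cox8a lower and a median of -0.04 (from -0.29 to 0.43 over 6 scalings). Mitochondrial ribosomal proteins had 44 of 45 within 2-fold, with Mrps9 higher. The proteasome had 36 of 38, with Pomp and Psma5 lower, and the unfolded protein response 28 of 29, with Eif2ak3 higher. Interferon response genes had 27 of 31 within 2-fold (3.2% higher and 9.7% lower). The GTPase genes Iigp1 (4.03-fold) and Igtp (2.51-fold) and the chemokine Cxcl9 were lower and Cxcl10 higher. Of 27 genes of the TCA cycle and pyruvate dehydrogenase, 2 were higher (7.4%), Idh2 (2.10-fold) and Mdh2 (2.06-fold). In that list 4 were lower (14.8%), among them Pdk2 (4.12-fold). Mitochondrial carriers had 2 of 29 higher (6.9%) and 8 lower (27.6%). This list and the TCA cycle list had larger shares lower than all measured genes. Slc25a4, the heart and muscle form of the ADP/ATP carrier, had 79.1 in WT and 1754 in LT (at least 19.4-fold higher), and Slc25a1, the citrate carrier that feeds lipid synthesis, 7527 in WT and 2643 in LT (2.85-fold lower).

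Markers of other cell types differed by list, where the hepatocyte markers had 6 of 14 lower (median -0.80). For comparison, 11.1% of all measured genes were higher and 9.02% lower. Kupffer cell and macrophage markers had 19 of 20 within 2-fold, C1qc lower, a median of -0.19 and a summed signal of 21417 in WT and 20249 in LT. Summed signals here add floored signals, so a gene at the floor adds the floor. Brighter probe sets weigh more in such a sum, which is no measure of cell number. Endothelial markers had 4 of 21 lower (median -0.52, summed signal 11074 in WT and 8237 in LT), among them Tek and Cdh5, and stellate and matrix markers 5 of 25 lower (median -0.44, summed signal 19464 in WT and 12253 in LT), among them Sparc and Lrat. T and NK cell markers had 7 measured genes, all within 2-fold. Neutrophil markers had 2 of 8 higher (25%), S100a8 (at least 2.53-fold) and Lcn2 (median 0.48, summed signal 1625 in WT and 2936 in LT). Lcn2, also named above among the acute phase genes, made most of the rise in that sum. B cell and plasma cell markers had 1 of 10 lower, Ighm (median -0.38). Erythroid markers had 2 of 6 lower and 1 higher, with Alas2, the erythroid heme synthesis enzyme, at 1742 in WT and 124 in LT (14-fold lower) and Car2, which other cells also make, higher. Of bile duct and progenitor markers, 5 were measured, with a median of 2.59, and -0.10 under the lower floor (25th percentile), and a summed signal of 722 in WT and 2107 in LT. Prom1 (88.4 in WT and 550.1 in LT, at least 6.09-fold), Cd24a and, on its brightest probe set alone, Sox4 were higher. The other 2 markers were not past 2-fold, with log2 ratios below 0, down to -0.59. The pancreatic elastase gene Cela1 had 1154 in WT and 159 in LT (7.28-fold lower), and the other 3 measured acinar markers were within 2-fold (median of the 4 markers -0.88). The part of cell composition in the differences above was not tested.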

How the data were processed

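Total RNA of mouse liver was hybridised to Affymetrix 430A and 430B arrays. The authors deposited 1 linear signal intensity for each probe set, and the submitters' processing notes name MAS5 without a version. The 2% trimmed mean of the deposited intensities was between 249.96 and 249.98 on the 4 arrays. Wash stations were read from the deposited array settings. Gene names came from the platform annotation, with symbols updated through the RefSeq table. Of 22690 probe sets on 430A and 22575 on 430B, 20393 and 14674 had 1 symbol, 691 and 245 several and 1606 and 7656 none, and only those with 1 symbol were used.

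Within each design, arrays were scaled to a common 2% trimmed mean, floored at the median signal of the design's 3 arrays and put on the log2 scale, and ratios were taken within a design alone. A gene was represented by the probe set brightest relative to the floor over those arrays, with an _x_at probe set used where there was no other. Genes at the floor in 1 genotype entered as bounds ("at least"), and genes at the floor in both were unmeasured. Between 47.1% and 51.7% of probe sets lay above the floor. Precision is limited by the number of arrays. Of 1136 called genes with another measured probe set, 83.6% had 1 or more of the same sign, 41.0% had 1 or more past 2-fold the same way, and 38 had 1 or more opposite by 2-fold. Values of other probe sets are given above for some of the named genes only.

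The 96 gene lists and the members were chosen with earlier results of these data known, and 2268 of their 2523 entries were found on the arrays. Lists overlap. Genes named were drawn from sets given by a rule, and not every member of a set is named. The sets were the 30 highest and 30 lowest ratios above the floor on both genotypes with no other probe set opposite by 2-fold. Further sets were the 10 brightest each way at the floor in the other genotype and the 20 brightest WT genes of each design. Each list gave its 6 largest ratios past 2-fold, or all members where fewer than 10 genes were measured. Lists with fewer than 3 past 2-fold gave their 3 brightest members. The rule also held Afp, Alb, Apoe, Ccng1, Cdkn1a, E2f1, Mdm2, Mki67, Pcna and Rb1. Named outside this rule, after their values were seen, were Abcb1a, Acot1, Akr1c19, Aldh1b1, Cebpa, Cps1, Cyp3a11, Cyp3a13, Cyp7a1, Fancc, Fgfr3, Ggps1, Hnf4a, Igf2r, Kif15, Kif24, Kif2a, Nsl1, Pcbd1, Pkm, Pole4, Scd2, Serpinb6a and the genes of the neighbour runs. Promoters were those of the RefSeq table, the first window listed for each gene. The code (Python 3.11.15, numpy 2.4.6, pandas 2.3.3) was tested on simulated arrays, and 13 alternatives to these settings were run.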

Additional observations from a re-analysis of the deposited data

How the results depend on the processing

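Against 1415 genes higher and 1152 lower, the counts were 805 and 2183 with scaling to the shared probe sets, 2741 and 633 with scaling to the hybridisation controls, 2175 and 2259 for a 25th percentile floor, 746 and 634 at the 75th, 484 and 428 at 3-fold, 856 and 680 on 430A alone, and 720 and 587 on 430B alone. Under the other 6 alternatives they stayed within 1.5 times. Of the gene lists, 15 had a median of 1 or above and 15 of -1 or below. The latter count was 28 under the shared probe sets, 8 under the hybridisation controls and 7 on 430B alone, and the former stayed within 1.5 times under all 13. Of 1162 list medians under the alternatives (lists with 5 or more measured members), 1133 moved by less than 0.54, the SD between probe sets of 1 gene, 63 had the other sign, and 4 of these came from a median of 0.5 or more in size: bile duct and progenitor markers to -0.10 at the lower floor, and on 430B alone gluconeogenesis and glycogen to 0.19, bile acid and organic ion transporters to 0.15 and the serpin family to 0.37. Of 4327 ratios of the 360 genes named, 29 had the other sign, and 10 of these came from a ratio of 2-fold or more: Ptk2b to 0.34 under the hybridisation controls, Nsl1 to 0.24 as a mean over probe sets, Gpt to 0.14 and Nasp to -0.65 without _x_at and _s_at probe sets and again on 430B alone, Hsd17b13 to -0.75 and Ptbp1 to 0.64 on 430A alone, and Fancc to 0.43 and Smc2 to -0.37 on 430B alone. A single design holds fewer genes and other probe sets; for the other settings the cause was not tested. No paired analysis was possible because each genotype had 1 array per design. Depth here is signal over background: genes near the floor, 5418 of 18193 at the floor in both genotypes, have no ratio or only a bound.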

Other observations

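Some groups outside the account above also held large ratios. Heme synthesis genes had 6 of 16 members lower and 0 higher, with the heme-binding protein Hebp1 at 3131 in WT and 542 in LT (5.77-fold lower) and Cpox at least 2.90-fold lower. Carbonic anhydrases split, with Car5a, the mitochondrial form of liver, at 606 in WT and 56.7 in LT (at least 6.70-fold lower) beside the higher Car2. Slc25a24, a calcium-regulated carrier of ATP, was 3.94-fold higher, and Slc25a47, a liver carrier, 3.22-fold lower. Of heat shock chaperones, Hspb1 was 2.82-fold higher (286 in WT and 805 in LT) and Hspb8 3.27-fold lower (1179.6 in WT and 361 in LT). Lipid droplet and fatty acid uptake genes had 8 of 24 lower, among them Fabp1 (18847 in WT and 6309.8 in LT, 2.99-fold) and Fabp2 (3.93-fold), and 1 higher, the receptor Vldlr (269.8 in WT and 715 in LT, 2.65-fold), whose other probe sets lay at -0.05 and 0.40 on the log2 scale. Slc16a1, a lactate carrier, was 2.98-fold higher (536 in WT and 1598 in LT), while the glutamine carrier Slc38a3 was 5.01-fold lower (4765 in WT and 950.5 in LT). The zinc and manganese transporter Slc30a10 was 4.69-fold lower (1989.8 in WT and 424 in LT). Per1, of the circadian clock, was at the floor in WT and at least 2.92-fold higher, and Nfil3 was 2.44-fold lower.

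Calls were unevenly spread over brightness. When the 12775 measured genes were ordered by mean signal relative to the floor, 19.5% of the brightest 1278 were lower in LT and 9.2% higher, whereas of the next 1277, 10.1% were lower and 13.8% higher. Of the 20 brightest WT genes on 430A, 19 had a log2 ratio below 0 and 7 were lower, and on 430B these numbers were 15 and 9. None of either 20 was higher. Choosing genes by a high signal on the WT array itself favours ratios below 0. Of the 20 brightest LT genes, a choice that favours ratios above 0 and was added after these values were seen, 17 on 430A had a log2 ratio below 0 and 0 were past 2-fold either way, and on 430B 15 had one above 0, with 4 higher and 1 lower.

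Neighbouring genes were sometimes called together. Among 12748 measured genes placed in chromosome order from the RefSeq table, 8 runs of at least 4 consecutive genes were all lower and 2 all higher. With 11.1% of measured genes higher and 9.02% lower, scattered calls can also give such runs. How many was not worked out, so the runs are a description. Of the lower runs, 6 were clusters of paralogs (Cyp2d, Ces1, the Rdh and Hsd17b6 cluster, Cyp2c, Cyp4a and Serpina), in which shared probe binding was not tested. The other two were Gulo, Ephx2, Ptk2b and 1700001G11Rik, and Meiob, Hagh, Fahd1 and Igfals. The higher runs, of genes that are not paralogs by name, were Prr11, Ska2, Trim37 and Rad51c, and Card10, Cdc42ep1, Lgals2 and Gga1.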
